A study of Mus musculus with 6 samples.

Results

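The BMP (bone morphogenetic protein) genes described here are 10 genes, of 20091 features tested, in cultured mouse astrocytes exposed to an inhibitor of the kinase GSK-3. They are the ligands Bmp2, Bmp4 and Bmp7, the secreted antagonists Grem1 and Nog, the membrane inhibitor Bambi, the inhibitory Smad6, and the target genes Id1, Id2 and Id3. The set was chosen by pathway membership with 2 measured values in view, the higher Grem1 and the lower Bmp4 signal in treated cultures. The array carried 14 probes for these genes, 13 of which gave usable signal, and all 10 genes were measured.

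The 6 one-colour Agilent arrays fell into 3 groups of 2. All cultures were primary astrocytes from cortex and striatum of wild-type C57BL/6J mice aged 1 day, treated for 2 days with 5 µM AraC, which kills dividing cells, and kept in 10% serum. From 13 days in vitro, washout cultures received 1 µM Ro3303544 (Ro) for 48 h and then 48 h without it. Ro cultures received 1 µM for 48 h, and control cultures received no inhibitor but, by the treatment protocol, a matching amount of the solvent DMSO. Washout cultures were thus harvested at 17 days in vitro, and Ro and control cultures at 15. Fewer than 1% of cells were stated to carry the microglial protein Iba1, and it is not stated whether the arrays of a group came from separate preparations.

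BMPs are secreted ligands that bind paired membrane kinase receptors, which phosphorylate Smad1, Smad5 and Smad9. With Smad4 these enter the nucleus and switch on targets, among them the Id genes, Smad6 and Smad7. Id proteins lack a DNA-binding region and sequester the E proteins that other helix-loop-helix factors need as partners. In the developing brain BMP signalling favours the astrocyte fate over neuronal and oligodendrocyte fates, and noggin, chordin and gremlin block it by binding the ligands outside the cell.

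Values below are log2 signals relative to each array's 75th percentile, so that a value of -1 is a signal at 0.5 of that percentile. The percentile itself lay between 629 and 804 intensity units, and 60.4% to 65.2% of probes were well above background. Each difference is one group's mean minus another's (2 arrays a group), given ± its standard error in limma. Because Ro against control was the contrast in view when the members were chosen, it is given for them without a test, and Grem1 and Bmp4 carry no test in any contrast. Bmp2 carries none either, because 2 of the 10 members, Bmp2 and Grem1, were well above background on both arrays of the Ro group alone and passed the filter on dim probes only through it. For the other 7 members the washout contrasts were tested, with p adjusted over all 20091 features. The washout arrays lay on a different slide from the other 4, so slide and washout cannot be told apart. Washout against Ro and washout against control share the washout arrays with each other, and each shares arrays with Ro against control.

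Between Ro and control, 3 members lay higher on both Ro arrays than on both control arrays, 5 lay lower, and the arrays of the other 2 overlapped. Of all features, 38.5% lay higher and 38.8% lower in this way, and 19.4% were called higher and 22.8% lower by limma at an adjusted p under 0.05. The higher members were Bmp2, Grem1 and Bambi, and the lower ones Bmp4, Nog, Smad6, Id1 and Id2. Bmp7 and Id3 overlapped. The median difference was -0.29 over the members and 0.00 over all features. The member counts and median include Grem1 and Bmp4, whose values were in view when the set was chosen. They also include Bmp2, which like Grem1 passed the filter only through Ro. They therefore describe the set and are no evidence of a shift.

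**Figure D1:**
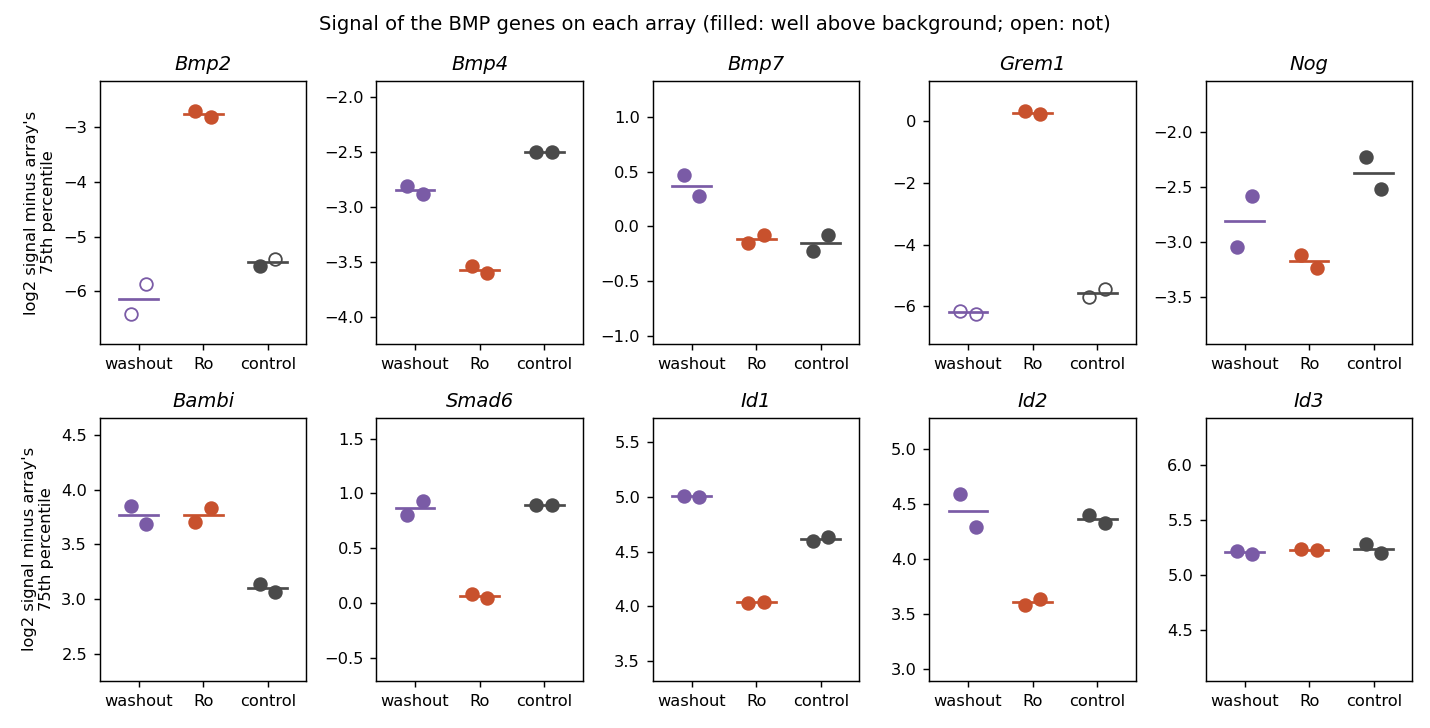
Log2 signal relative to the array's 75th percentile (vertical axes) of the 10 members on each of the 6 arrays, by group. Points are arrays and horizontal bars are means of 2. Grem1 stands at 0.33 and 0.25 on the Ro arrays and below -5 on the other 4, while the Id3 points lie between 5.19 and 5.28.

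Among the antagonists, Grem1 encodes gremlin, which binds BMP2, BMP4 and BMP7. Its log2 signal was 0.33 and 0.25 on the Ro arrays, against -5.69 and -5.45 on the control arrays, where it was not well above background. Expressed as intensity these were 1008 and 922 units in Ro, against 14.5 and 14.3 units in control. With the dimmest detectable signal put in place of the control readings, Grem1 was at least 52.2-fold higher in Ro. On the washout arrays it read -6.15 and -6.25, again not well above background, at least 34.6-fold lower than in Ro. Grem1 was therefore detected in the Ro cultures and in neither of the other groups. With a background model that adds an offset before taking logs (normexp), the fitted Ro-minus-control difference was 3.28 in place of 5.86. Washout minus Ro was -3.44 with normexp, in place of -6.48, so both bounds depend on the processing.

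The promoter of Grem1 is shown because this gene carries the widest difference among the members. The window runs from 250 bases before to 50 bases after the annotated start (RefSeq, GRCm38.p6, chr2:113758599-113758898, minus strand), written 5′ to 3′ on the gene's strand. Such windows were searched for 5 of the 10 members, namely Bmp4, Grem1, Smad6, Id2 and Id3. Capitals mark matches to any of 3 motifs searched on both strands, the GC-rich Smad element with the letters GGCGCC, the Smad-binding motif with the letters GTCTG, and the letters CTTTGA for TCF/LEF, the DNA-binding factors of the Wnt pathway. The motifs did not overlap each other in these windows, and a match on the reverse strand appears as its reverse complement. Other forms of these sites were not searched.
Grem1: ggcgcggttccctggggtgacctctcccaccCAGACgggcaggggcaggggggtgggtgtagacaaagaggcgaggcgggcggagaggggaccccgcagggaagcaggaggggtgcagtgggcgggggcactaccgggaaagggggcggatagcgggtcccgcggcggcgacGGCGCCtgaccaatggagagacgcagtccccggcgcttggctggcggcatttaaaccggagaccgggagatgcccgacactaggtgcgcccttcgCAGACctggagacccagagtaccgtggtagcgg

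The Grem1 window held 1 GGCGCC, starting at position -78 from the start site, and 2 copies of GTCTG on the reverse strand, at -219 and 18. Of 32851 mouse promoter windows of the same length, 11.9% held the GC-rich element, 49.6% the Smad-binding motif and 16.0% the TCF/LEF site. The TCF/LEF letters were absent from all 5 windows. The Bmp4 window held none of the motifs.

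Nog encodes noggin, a secreted antagonist that covers the receptor-binding faces of BMP ligands. It read -3.12 and -3.24 in Ro, against -2.23 and -2.52 in control, a difference of -0.80 ± 0.19. Both Ro arrays lay below both control arrays, the opposite direction to Grem1. In washout it read -3.04 and -2.58, one array near Ro and the other near control. Neither washout contrast passed the threshold. Washout minus Ro was 0.36 ± 0.19 (95% interval -0.11 to 0.84, adjusted p = 0.178), and washout minus control -0.44 ± 0.19 (95% interval -0.91 to 0.04, adjusted p = 0.203).

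Bambi encodes a pseudoreceptor, a membrane protein like a BMP receptor without a kinase domain, and is known as a target of Wnt/beta-catenin signalling as well as of BMPs. It read 3.70 and 3.83 in Ro, against 3.14 and 3.06 in control, a difference of 0.66 ± 0.09 or 1.59-fold. In washout it read 3.85 and 3.69, on either side of the Ro arrays and above both control arrays. It was higher than control by 0.67 ± 0.09 (adjusted p = 0.0210), whereas washout minus Ro was 0.00 ± 0.09 (95% interval -0.24 to 0.24, adjusted p = 0.986). The call against control was lost when any array other than washout 2 was left out (adjusted p up to 0.0996). A second Bambi probe was not well above background on any array.

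Among the ligands, Bmp4 is a classical inducer of astrocyte differentiation. It read -3.54 and -3.60 in Ro, against -2.50 and -2.50 in control, a difference of -1.07 ± 0.07. The washout arrays gave -2.81 and -2.88, between the other groups without overlap. Washout minus Ro was 0.73 ± 0.07 and washout minus control -0.35 ± 0.07. With normexp the Ro-minus-control difference was -0.67.

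Bmp2, a close relative of Bmp4 that uses the same receptors, lay the other way. It read -2.71 and -2.82 in Ro, against -5.53 and -5.41 in control, where only control 1 was well above background. The difference was 2.70 ± 0.19, or 1.04 with normexp. In washout it read -6.41 and -5.86, not well above background on either array, at least 4.17-fold lower than in Ro in these values. The fitted washout-minus-Ro difference was -3.37, but -1.21 with normexp and -1.86 in the authors' values, so that bound depends on the processing. No fold between washout and control can be given, since the dimmest detectable washout signal lies above the control mean. The Bmp2 spot on washout 1 lay in a part of the slide where neighbouring spots were raised, and it still gave the lowest of the 6 readings.

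Bmp7, a ligand of the BMP5/6/7 branch, read -0.16 and -0.07 in Ro, against -0.22 and -0.08 in control, and these arrays overlapped. After washout it read 0.47 and 0.27, above all 4 other arrays. It rose by 0.49 ± 0.10 in washout relative to Ro (adjusted p = 0.0171) and by 0.52 ± 0.10 relative to control (adjusted p = 0.0424). The second Bmp7 probe gave 0.51 and 0.57, but its spot lay among raised spots on washout 1. The call against control was lost when any single array was left out (adjusted p up to 0.146) and with the mean of both probes (0.0548), and that against Ro without Ro 1, Ro 2 or washout 1 (adjusted p 0.0963, 0.0655 and 0.0559).

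Among the genes that BMP-Smad signalling switches on, Smad6, an inhibitor that feeds back on the receptors and on Smad1, read 0.09 and 0.05 in Ro, against 0.89 and 0.89 in control. The difference was -0.82 ± 0.08. The washout arrays gave 0.81 and 0.93, on either side of the control arrays. It rose by 0.80 ± 0.08 relative to Ro (adjusted p = 0.00136), and washout minus control was -0.02 ± 0.08 (95% interval -0.22 to 0.17, adjusted p = 0.867).

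Id1, a direct Smad target, read 4.04 and 4.04 in Ro, against 4.60 and 4.63 in control, a difference of -0.58 ± 0.06 or 0.671-fold. Its replicates differed by far less than the groups did. After washout it read 5.01 and 5.00, above every other array. It rose by 0.97 ± 0.06 relative to Ro (adjusted p = 0.000532) and by 0.39 ± 0.06 relative to control (adjusted p = 0.0302). The second Id1 probe gave differences of -0.61, 0.95 and 0.34 for Ro minus control, washout minus Ro and washout minus control. The call against control was lost without any single array (adjusted p up to 0.108), under median centring (0.0596) and in the authors' values (0.0657).

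Id2, which also restrains E proteins and is known for blocking oligodendrocyte differentiation, read 3.58 and 3.64 in Ro, against 4.40 and 4.33 in control. The difference was -0.76 ± 0.12. After washout it read 4.60 and 4.29, and overlapped control. It rose by 0.83 ± 0.12 relative to Ro (adjusted p = 0.0049), and washout minus control was 0.08 ± 0.12 (95% interval -0.23 to 0.38, adjusted p = 0.714). The second Id2 probe gave -0.81, 0.88 and 0.07 in the same 3 comparisons.

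Id3, the remaining Id gene among the members, read 5.23 and 5.23 in Ro, against 5.28 and 5.20 in control. The washout arrays gave 5.22 and 5.19. The differences were -0.01 ± 0.07 for Ro minus control, -0.03 ± 0.07 for washout minus Ro (95% interval -0.21 to 0.15, adjusted p = 0.780) and -0.03 ± 0.07 for washout minus control (95% interval -0.21 to 0.15, adjusted p = 0.794). Id3 thus stayed within a narrow range while Id1 and Id2 lay apart between Ro and control. Whether its response differed from theirs was not tested.

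The promoter windows of these targets are shown to set Id3 beside the targets that were lower in Ro, with motifs and capitals as for Grem1. They are Smad6 (chr9:64022010-64022309, minus strand), Id2 (chr12:25096043-25096342, minus strand) and Id3 (chr4:136143572-136143871, plus strand), all RefSeq on GRCm38.p6.
Smad6: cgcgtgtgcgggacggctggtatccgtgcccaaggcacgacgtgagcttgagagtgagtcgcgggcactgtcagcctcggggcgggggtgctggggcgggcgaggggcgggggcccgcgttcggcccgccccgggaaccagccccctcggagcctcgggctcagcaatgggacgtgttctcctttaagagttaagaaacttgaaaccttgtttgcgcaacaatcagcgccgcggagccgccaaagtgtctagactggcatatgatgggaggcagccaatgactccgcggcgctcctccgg
Id2: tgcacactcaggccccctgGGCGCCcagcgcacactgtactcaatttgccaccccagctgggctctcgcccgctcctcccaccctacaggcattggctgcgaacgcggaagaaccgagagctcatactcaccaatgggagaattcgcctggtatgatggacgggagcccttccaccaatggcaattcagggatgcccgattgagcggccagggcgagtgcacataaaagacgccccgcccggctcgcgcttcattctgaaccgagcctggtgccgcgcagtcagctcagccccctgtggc
Id3: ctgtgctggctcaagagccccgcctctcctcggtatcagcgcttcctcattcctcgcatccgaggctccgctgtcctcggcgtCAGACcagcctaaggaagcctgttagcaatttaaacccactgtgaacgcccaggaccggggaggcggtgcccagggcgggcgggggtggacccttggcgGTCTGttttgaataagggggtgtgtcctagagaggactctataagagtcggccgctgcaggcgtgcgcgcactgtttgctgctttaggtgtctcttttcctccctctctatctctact

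The Id2 window held 1 GGCGCC at position -231, and the Id3 window 2 Smad-binding motifs, at -167 on the reverse strand and -68 on the forward strand. The Smad6 window held none of the 3 motifs. It does hold the letters GTCTAGAC, which are GTCT followed by its reverse complement AGAC. That form was not searched, so the lack of matches does not show that the Smad6 window lacks a Smad-binding site. Matches to GGCGCC and GTCTG are common among mouse promoters by the shares given for Grem1. The known Smad-responsive enhancers of Id genes can lie outside such a window.

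Over the 7 members tested, 4 rose in washout relative to Ro (Bmp7, Smad6, Id1 and Id2), where 21.3% of all features were called higher and 20.3% lower. Relative to control, 3 were called higher in washout (Bmp7, Bambi and Id1), where 4.11% of all features were called higher and 6.03% lower. The rises of Smad6, Id1 and Id2 relative to Ro held in all 16 alternatives tried, with adjusted p of at most 0.0150, 0.00779 and 0.0350. Because the groups share arrays and Ro was lower for these 3 genes, a rise after washout partly repeats the Ro-minus-control difference.

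**Figure D2:**
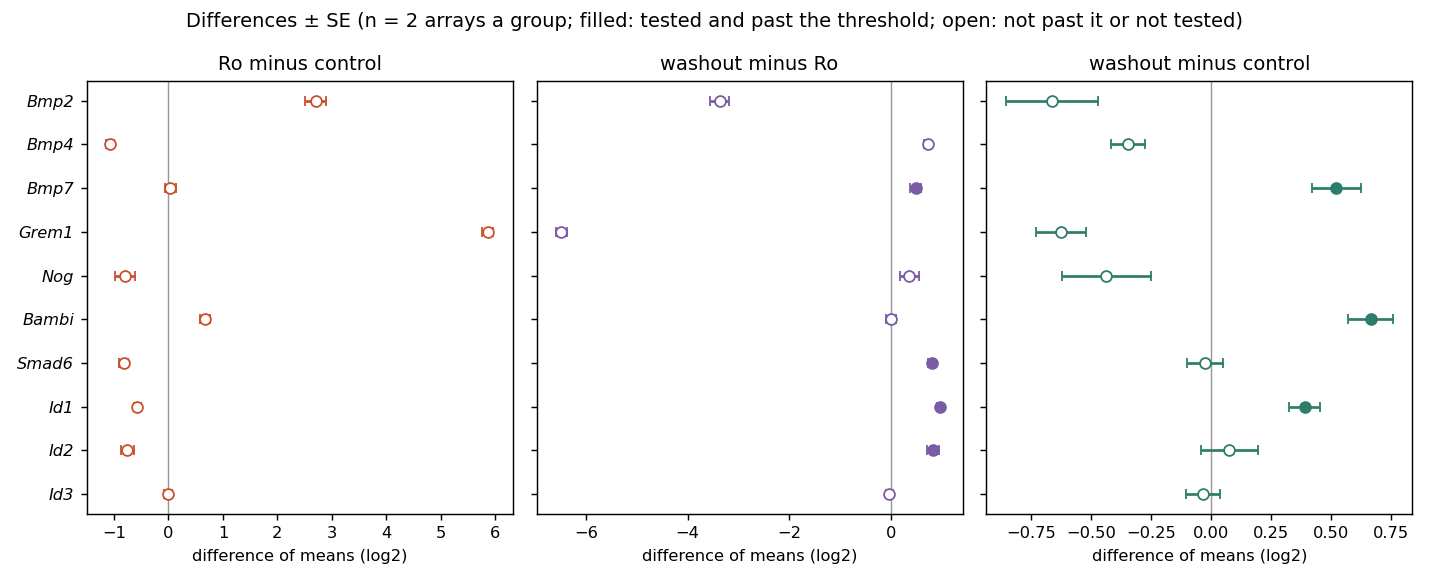
Difference of group means (horizontal axis, log2) ± limma standard error for each member in Ro minus control, washout minus Ro and washout minus control, with 2 arrays in each group. Horizontal scales differ between panels. Filled points passed the threshold, and open points did not or carry no test. Grem1 and Bmp2 are drawn at their fitted differences, although their washout readings were not well above background. Smad6, Id1 and Id2 lie between -0.82 and -0.58 in the left panel and between 0.80 and 0.97 in the middle one.

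The rest of the pathway was covered by 6 further lists of 69 genes, of which 49 were measured. Of the 49, 5 passed the filter only through the group where they were brightest, which leaves 44. With Ro, 10 of these 44 rose and 16 fell (22.7% and 36.4%), where 19.4% and 22.8% of all features did. In washout relative to Ro, 15 rose and 10 fell (34.1% and 22.7%, against 21.3% and 20.3%). In washout relative to control, 5 rose and 3 fell (11.4% and 6.82%, against 4.11% and 6.03%). Several of these shares are near those of all features. Over all 49 the median differences were -0.22, 0.11 and -0.10, against 0.00, -0.02 and -0.01 over all features. Of the largest calls of each list, at most 4 in a comparison, 15 of 18 with Ro, 17 of 20 in washout against Ro and 1 of 8 in washout against control (Junb) held whichever single array was left out. Those lost with Ro were Bmp3 (without either Ro array), Smad7 (without Ro 2 or control 1) and Smad5 (without Ro 1), with adjusted p up to 0.0718. Those lost in washout against Ro were Zfp423, Smad5 and Tcf3, with adjusted p up to 0.153. The 7 lost in washout against control had adjusted p up to 0.120, all of them when control 2 was left out.

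Of 12 other ligands, 6 were measured. Bmp6, of the same branch as Bmp7, read 0.30 and 0.38 in Ro, against 2.29 and 2.02 in control. It fell by 1.82 ± 0.11 with Ro (adjusted p = 0.000421), and rose in washout to 2.03 and 2.06 (1.71 ± 0.11 relative to Ro, adjusted p = 0.000474). Bmp3 fell by 0.48 ± 0.09 with Ro (adjusted p = 0.0101). Bmp8a read -3.59 and -3.70 in Ro, against -6.46 and -5.14 in control, where only control 2 was well above background, and it is given without a test. No ligand of the list passed in washout against control.

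Of 18 other antagonists and modulators, 13 were measured. Setting aside 1 that passed the filter only through its brightest group, 2 of 12 rose and 5 fell with Ro, against 19.4% and 22.8% of all features. The risers were Fst, encoding follistatin, which binds activins and some BMPs (1.49 ± 0.12, adjusted p = 0.00101), and Twsg1, a chordin partner (0.90 ± 0.08, adjusted p = 0.00113). Sostdc1, a secreted inhibitor of BMP and Wnt signalling, fell by 1.36 ± 0.09 (adjusted p = 0.000531).

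Relative to Ro, washout brought Sostdc1 up by 1.90 ± 0.09 (adjusted p = 0.000255) and brought Fst and Twsg1 down (-1.67 ± 0.12 and -0.88 ± 0.08, adjusted p 0.000684 and 0.00111). Chrdl1, a chordin-like antagonist made by astrocytes, rose by 0.96 ± 0.09 relative to Ro (adjusted p = 0.00145) and by 0.98 ± 0.09 relative to control (adjusted p = 0.0104). Bmper, an extracellular BMP modulator, was lower in washout than in control (-0.74 ± 0.10, adjusted p = 0.0198), and Sostdc1 was higher (0.54 ± 0.09, adjusted p = 0.0303). The Bmper signal was already lower in Ro than in control (-0.85 ± 0.10, adjusted p = 0.00284). Its washout-minus-Ro difference did not pass (0.11 ± 0.10, adjusted p = 0.428).

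Of 11 receptors and co-receptors, 8 were measured. Rgma, a BMP co-receptor, fell by 1.54 ± 0.07 with Ro (adjusted p = 0.000247) and rose by 1.41 ± 0.07 in washout relative to Ro (adjusted p = 0.000294). The receptors Bmpr1b (1.41 ± 0.16, adjusted p = 0.00242) and Acvr1 (0.74 ± 0.12, adjusted p = 0.00775) rose with Ro, and both fell in washout relative to Ro (-0.95 ± 0.16 and -0.86 ± 0.12). Acvr2b, an activin and BMP receptor, fell in washout relative to Ro and to control (-0.59 ± 0.08 and -0.64 ± 0.08, adjusted p 0.0049 and 0.0182). Acvr2b was dim, and not well above background on washout 1. The Bmpr1b spot lay among raised spots on both washout arrays. Eng, encoding the co-receptor endoglin, was lower than control in Ro (-0.70 ± 0.10, adjusted p = 0.00466) and in washout (-0.94 ± 0.10, adjusted p = 0.0120).

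All 11 Smads and intracellular regulators were measured. Without Smad9, 2 of 10 rose and 3 fell with Ro, against 19.4% and 22.8% of all features. Smad5 rose by 0.42 ± 0.07 (adjusted p = 0.00757), and fell in washout relative to Ro (-0.28 ± 0.07, adjusted p = 0.0259). Smad1, which lies outside the naming rule, rose by 0.37 ± 0.09 with Ro (adjusted p = 0.0274). Smad9, well above background on the control arrays alone, was at least 2.16-fold lower in Ro, and is given without a test. Smad7, the inhibitory relative of Smad6, fell by 0.48 ± 0.09 with Ro (adjusted p = 0.0135). In washout it rose by 1.09 ± 0.09 relative to Ro (adjusted p = 0.00103) and by 0.61 ± 0.09 relative to control (adjusted p = 0.0254). Smurf1, a ubiquitin ligase acting on BMP Smads, fell by 0.57 ± 0.08 with Ro (adjusted p = 0.00566) and rose by 0.71 ± 0.08 in washout relative to Ro (adjusted p = 0.00286). The second Smurf1 probe gave differences of -0.56 and 0.29 in the same comparisons, a smaller rise. Zfp423, a zinc-finger partner of BMP Smads, rose by 0.51 ± 0.10 in washout relative to Ro (adjusted p = 0.0122).

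Of 14 other target genes, 8 were measured. Without Runx2, which was well above background on both arrays of Ro alone, 2 of 7 rose and 4 fell with Ro, against 19.4% and 22.8% of all features. Id4, the Id gene that was not among the members, read 3.48 and 3.51 in Ro, against 5.22 and 5.11 in control. It fell by 1.67 ± 0.07 with Ro (adjusted p = 0.000224), and rose by 1.44 ± 0.07 in washout relative to Ro (adjusted p = 0.000284). Hey1, a repressor also driven by Notch, fell by 0.83 ± 0.08 with Ro (adjusted p = 0.00132). Msx2, which Wnt signalling can also induce, and Gata2 rose with Ro, by 0.94 ± 0.09 and 0.88 ± 0.11 (adjusted p 0.00140 and 0.00294).

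In washout relative to Ro, 5 of these 7 targets rose and 1, Msx2, fell (-1.25 ± 0.09, adjusted p = 0.000611), where 21.3% and 20.3% of all features did. The risers included Id4, Hey1 (0.98 ± 0.08, adjusted p = 0.000759) and the immediate early gene Junb (1.18 ± 0.07, adjusted p = 0.000456), and Dlx2 and Atoh8, which lie outside the naming rule. Junb and Gata2 were also higher in washout than in control, by 1.14 ± 0.07 and 0.88 ± 0.11 (adjusted p 0.00633 and 0.0156).

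The 3 E proteins, the partners that Id proteins sequester, were all measured. Tcf4 read 4.99 and 4.96 in Ro, against 3.51 and 3.61 in control, and rose by 1.41 ± 0.09 with Ro (adjusted p = 0.000429). Its second probe gave a difference of 0.66. Tcf12 rose by 1.27 ± 0.09 (adjusted p = 0.000639). Both fell in washout relative to Ro, by 1.49 ± 0.09 and 1.27 ± 0.09, and Tcf3 fell by 0.31 ± 0.08 (adjusted p = 0.0347). None of the 3 passed in washout against control.

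**Figure D3:**
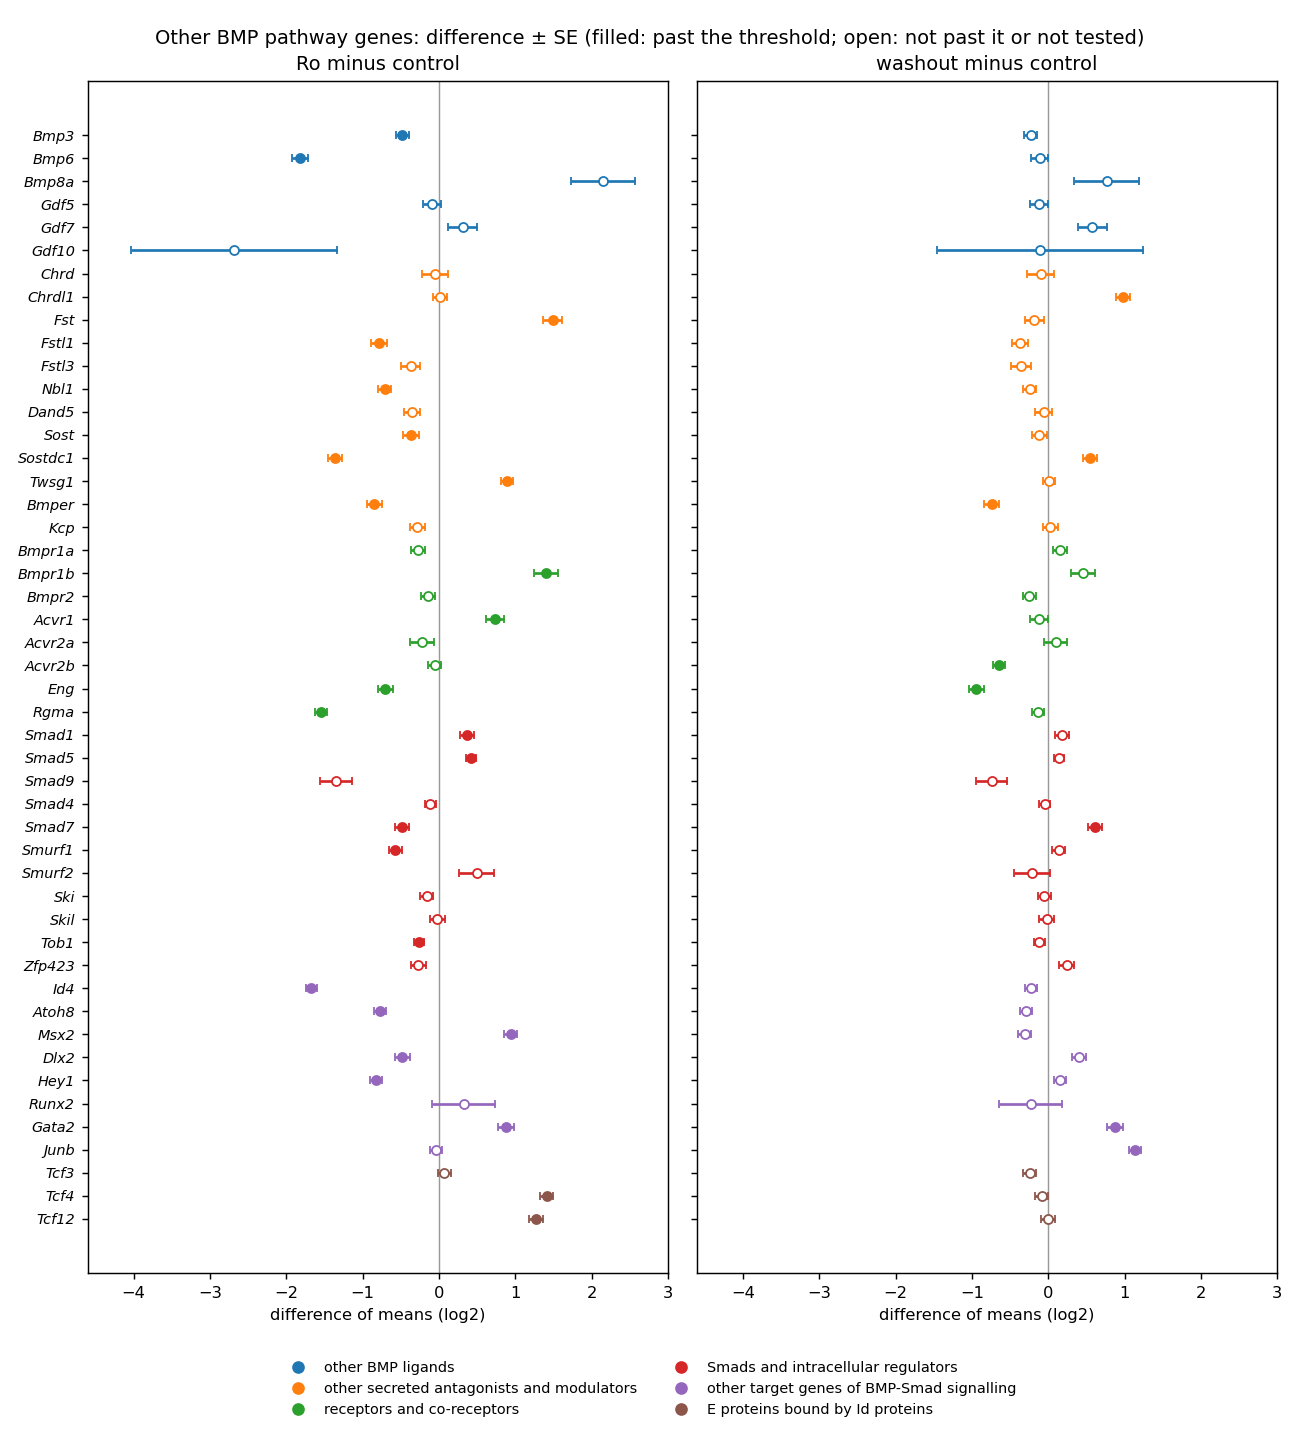
Difference of group means (log2) ± limma standard error of measured genes of the 6 further BMP pathway lists in Ro minus control (left) and washout minus control (right). Each point is a gene, coloured by list. Filled points passed an adjusted p of 0.05, and open points did not or carry no test. With Ro, Id4 lies at -1.67 and Tcf4 at 1.41.

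Cell markers moved with these results. The summed relative signal of 4 measured oligodendrocyte precursor markers, a cell type for which BMP signals matter, was 15.8 and 15.01 in washout and 6.08 and 6.07 in Ro, against 24.3 and 24.6 in control. All 4 fell with Ro. The sum over 5 pericyte and smooth muscle markers was 288 and 276 in washout and 111 and 113 in Ro, against 364 and 400 in control. Acta2 and Cnn1 make up nearly all of this sum and fell with Ro (-1.76 ± 0.08 and -1.89 ± 0.09), whereas Myh11 did not pass (-0.71 ± 0.41, adjusted p = 0.219). For the 8 astrocyte markers it was 166 and 156 in washout and 111 and 118 in Ro, against 162 and 151 in control. Of these 8, Gfap, Aqp4, Aldh1l1, S100b and Aldoc fell with Ro while Slc1a2 and Gja1 rose. Meningeal fibroblast markers summed to 10.9 and 11.2 in washout and 16.6 and 15.9 in Ro, against 19.6 and 24.8 in control, and all 7 were lower in washout than control. Over 4 ependymal markers the sums were 41.2 and 38.3 in washout and 11.7 and 13.6 in Ro, against 34.7 and 34.0 in control, and over 4 neuronal markers 9.70 and 8.90 in washout and 2.87 and 3.13 in Ro, against 9.04 and 9.21 in control. The oligodendrocyte marker Mog, the microglial P2ry12 and the endothelial Pecam1 were not well above background on any array. Fewer cells of a type and less RNA per cell cannot be told apart in such bulk cultures, and the part of these markers in the BMP results was not tested.

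The genes whose pattern over the 6 arrays was most like each of 3 members were found by Pearson's r among 2126 or 2127 named genes with a range above 1 on the log2 scale. For Grem1 they were Cd83, Pcdh18 and Gpc1 (r = 0.9999, 0.9998 and 0.9998). For Bmp4 they were the oligodendrocyte lineage gene Olig1, Clmp and Mamdc2 (r = 0.9991, 0.9990 and 0.9984). For Id1 they were Lrp2, Klhl21 and Maff (r = 0.9986, 0.9984 and 0.9983). With only 3 group levels any gene of a like step pattern scores this high, so these r values are descriptive.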

How the data were processed

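RNA from 6 astrocyte cultures was hybridised to one-colour Agilent arrays. The deposited array files hold a processed intensity per spot, which the authors made with Feature Extraction (10.1 per the submitters' processing notes, 10.5.1.1 per the file headers). In another deposited table the authors gave a linear ratio per probe, whose centring is not given in the sources used here and which was used only as an alternative. Of 41174 non-control probes, 106 with faulty spots were left out. From the log2 intensity the 75th percentile of its array was subtracted. The 26474 probes that the scanner software called well above background on both arrays of some group were kept, named through their accession with RefSeq's table (GRCm38.p6), and 1 probe per gene, the brightest, was tested (20091 features, 13053 with a symbol). No gene coordinates of the arrays were used.

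limma 3.58.1 (R 4.3.3) fitted group means to the 6 arrays together (3 residual and 2.07 prior degrees of freedom) and tested their differences, two-sided, with Benjamini-Hochberg adjustment and a threshold of 0.05. The number of arrays limits the precision, and an exact permutation test of 2 against 2 cannot go below p = 0.333. P-values measure only the spread between these samples. A gene not well above background in a group is given as a bound. Of each pathway list, every gene past the threshold was named, at most 4 per list and comparison, by the largest difference. Genes that passed the filter only through 1 group carry no p, as chosen after seeing the data. The members and lists were chosen with earlier results of these data known. Alternatives varied the scaling, background model, dim-probe filter, variance estimate, choice of probe, pairing and set of arrays. One further item of these lists is not reported here. The procedure was tested on simulated data. Figures were drawn with matplotlib 3.10.9.

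Same-numbered arrays did not deviate together (r = -0.12 for Ro and control, -0.11 for washout and Ro, 0.08 for washout and control), so replicate numbers were not used as pairs.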

Additional observations from a re-analysis of the deposited data

How the results depend on the processing

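The calls counted over all features depended on the arrays and the filter. Without a filter on dim probes, Ro against control gave 2497 features higher in place of 3906, washout against Ro 2699 lower in place of 4074, and washout against control 62 higher and 79 lower in place of 826 and 1212. With an intensity trend and robust variance, 1308 were higher in washout than control. Leaving out each array in turn gave 1833 to 4092 higher and 2711 to 4715 lower for Ro against control, 2655 to 4052 higher and 2107 to 3775 lower for washout against Ro, and 83 to 580 higher and 119 to 744 lower for washout against control. With the replicate block, washout against control gave 294 higher and 464 lower. An exchange of the Ro numbers in the block, chosen after seeing the data, gave 734 and 954. For the further pathway lists, washout against control gave 1 higher and 0 lower without the filter and 3 higher with the replicate block, against 5 and 4 over all 49 genes, and leaving out arrays gave 2 to 4 higher and 0 to 5 lower. The share of calls that were higher, 51.3% in washout against Ro and 40.5% in washout against control, was 40.0% and 30.1% with median centring and 38.9% and 29.1% with the authors' values. These scalings moved the median of all features in washout against Ro to -0.12. With the replicate block, the calls of Bmp7, Bambi and Id1 against control were lost (adjusted p = 0.0967, 0.0569 and 0.083), as they were without the filter (0.0962, 0.0801 and 0.0962). Bmp7 against Ro was also lost without the filter (0.0557). With 2 arrays in each group on 2 slides, the washout contrasts are the least firm, and the causes of these changes were not tested.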
